A study of Mus musculus with 6 samples.

Results

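Nucleotide synthesis was examined through 9 enzyme genes in cardiomyocyte (CM) nuclei: *Rrm1*, *Rrm2*, *Tyms*, *Tk1*, *Cad*, *Umps*, *Ppat*, *Paics* and *Impdh2*. They were chosen by name, as the rows of the deposited count table whose Ensembl identifiers carry these symbols in the GENCODE M21 annotation, and are 9 of the 54532 genes in the table. The study asked whether a YAP protein that cannot bind TEAD transcription factors still acts on CMs, and nucleotide supply is one of the needs of a cell that enters the cell cycle. Wild-type ICR mice received 1e+11 viral genomes of AAV9 under the skin at P6 (postnatal day 6), and hearts were taken at P9, 3 days later. The virus carried GFP, YAP5SA or YAP6SA. YAP5SA has the serines that LATS kinases phosphorylate changed to alanine. YAP6SA has these changes and 1 more serine-to-alanine change, which disrupts TEAD binding. All constructs were driven by the cTnT (cardiac troponin T) promoter, so that expression was directed to CMs, and all groups, the GFP controls included, received virus. CM nuclei were enriched by pulldown with an antibody against PCM1, and their poly-A RNA was sequenced without strand information. Each of the 3 groups had 2 libraries, and library 1 and library 2 of every group belonged to batch 1 and batch 2. The study collected 2 hearts for each virus. Nothing in the labels says more of the animals, so the p-values measure the spread between these libraries.

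Nucleotides are made de novo from amino acids, one-carbon units and phosphoribosyl pyrophosphate, or are salvaged from free bases and nucleosides. Purine synthesis begins with *Ppat*, passes through *Paics* and ends at inosine monophosphate, from which *Impdh2* opens the guanine branch. Pyrimidine synthesis begins with the multifunctional enzyme *Cad* and ends in uridine monophosphate, made by *Umps*. Ribonucleotide reductase, whose large and small subunits are encoded by *Rrm1* and *Rrm2*, then converts ribonucleotides to deoxyribonucleotides, and *Tyms* and *Tk1* supply thymidylate by synthesis and by salvage. *Rrm2*, *Tyms* and *Tk1* are known as genes of S phase, the phase in which DNA is copied, and most CMs leave the cell cycle soon after birth.

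The libraries held 14552847 to 19615627 gene counts each, and 22.0% to 23.4% of the reads lay outside the gene counts. At this depth a count of 0 allows up to 3 counts, or 0.152 to 0.198 CPM (gene counts scaled to a common library total), and the lowest count of any of the 9 genes was 68. The floor covers counting error only. Endogenous *Yap1* had 102 to 139 CPM across all 6 libraries and passed the threshold in none of the comparisons. Whether reads of the delivered construct are counted in that gene is not given in the sources used here, so this gene does not check the labels. The 8 CM markers summed to 49400 and 66300 CPM with GFP, 47200 and 60700 with YAP6SA, and 41500 and 30200 with YAP5SA. None of the markers of any cell type was at 0 in all libraries.

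All 9 are protein-coding genes, and counts were summed over their exons (positions in GRCm38). *Rrm1* (ENSMUSG00000030978) lies on the plus strand of chromosome 7 from 102441695 to 102469771, and *Rrm2* (ENSMUSG00000020649) on the plus strand of chromosome 12 from 24708241 to 24714146. *Tyms* (ENSMUSG00000025747) lies on the minus strand of chromosome 5 from 30058202 to 30073617, and *Tk1* (ENSMUSG00000025574) on the minus strand of chromosome 11 from 117815526 to 117826092. *Cad* (ENSMUSG00000013629) lies on the plus strand of chromosome 5 from 31054780 to 31078479, and *Umps* (ENSMUSG00000022814) on the minus strand of chromosome 16 from 33954782 to 33967038. *Ppat* (ENSMUSG00000029246) and *Paics* (ENSMUSG00000029247) are neighbours on chromosome 5, and *Impdh2* (ENSMUSG00000062867) lies on the plus strand of chromosome 9 from 108560286 to 108565584.

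In YAP5SA OE (overexpressing) CMs, 6 of the 9 genes were higher than in GFP controls and none was lower. They were *Rrm1*, *Rrm2*, *Tyms*, *Tk1*, *Ppat* and *Impdh2*, with fold changes from 1.44 for *Impdh2* to 6.57 for *Rrm2*. Of all 13323 genes tested, 12.8% were called higher and 9.18% lower in this comparison. In 8 of the 9 both YAP5SA libraries lay above both GFP libraries, where 31.2% of all genes did so and 29.8% lay below, and the same 8 were higher at an unadjusted p under 0.05, against 19.4% of all genes higher and 17.0% lower. The median log2 fold change of the 9 genes was 0.82, against -0.0031 for all genes tested. The 4 genes of deoxyribonucleotide supply all rose, with a median of 1.56, whereas 2 of the 5 genes of ribonucleotide synthesis rose, with a median of 0.52. In YAP6SA OE CMs 0 of the 9 passed the threshold against GFP. Calls were made with the quasi-likelihood test of edgeR in 1 model of group and batch over all 6 libraries, at a Benjamini-Hochberg adjusted p under 0.05 over all genes tested, and all 9 genes passed the filter on low counts. Both variants were compared with the same 2 GFP libraries, so these comparisons are not independent.

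**Figure D1:**
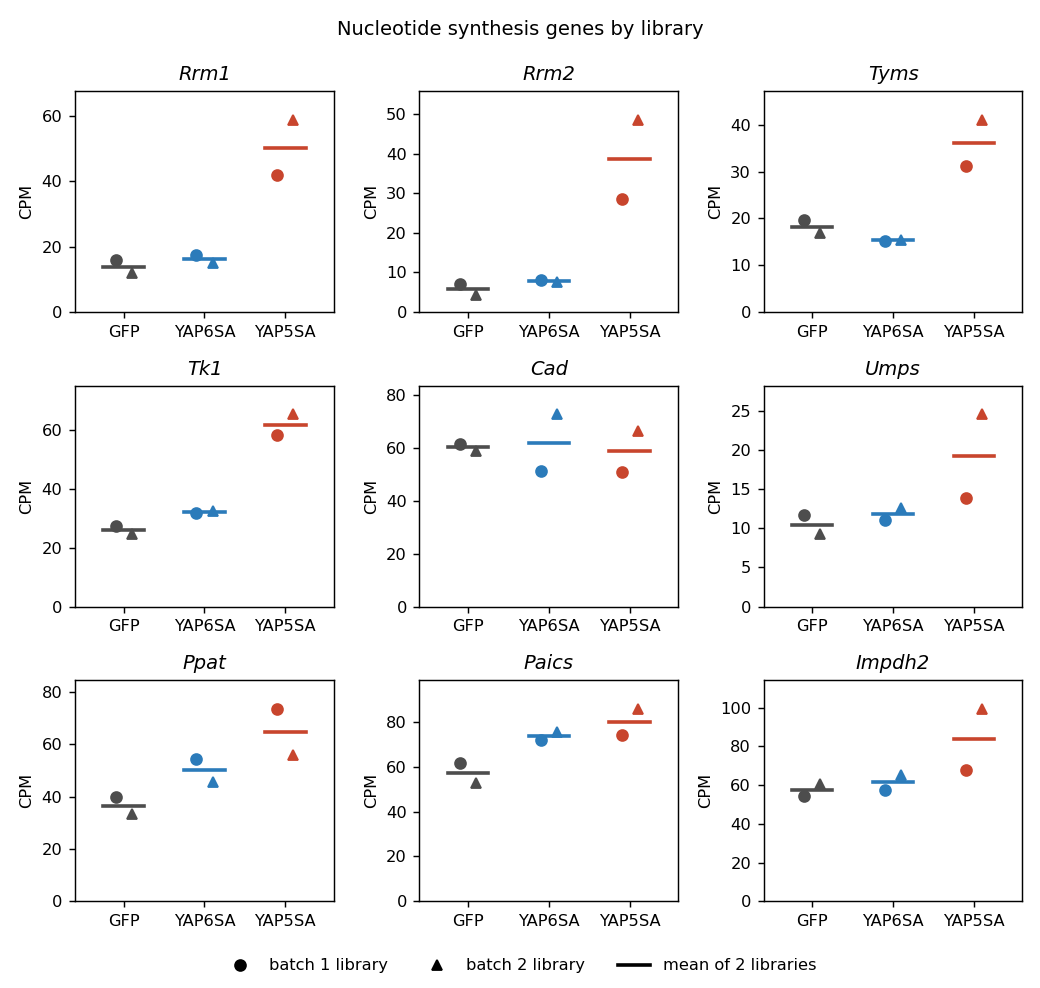
Level of each of the 9 genes in each library, in CPM scaled by TMM (vertical axes, from 0), for the GFP, YAP6SA and YAP5SA groups. Circles are batch 1 libraries, triangles batch 2 libraries and bars the mean of the 2 libraries. Both YAP5SA libraries lie above the other 4 for *Rrm1*, *Rrm2*, *Tyms* and *Tk1*, whereas the groups of *Cad* overlap.

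*Rrm2*, the small subunit that carries the radical of ribonucleotide reductase, had the largest difference of the 9. Its level was 7.18 and 4.43 CPM with GFP, 8.01 and 7.49 CPM with YAP6SA, and 28.6 and 48.6 CPM with YAP5SA, given here and below as the batch 1 and then the batch 2 library of each virus. Both YAP5SA libraries stood above the other 4. The log2 fold change of YAP5SA against GFP was 2.72 (SE 0.334, adjusted p = 0.000826), or 1.99 within batch 1 and 3.45 within batch 2.

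*Rrm1*, which encodes the large catalytic subunit, had 15.8 and 11.9 CPM with GFP, 17.5 and 15.1 CPM with YAP6SA, and 41.8 and 58.8 CPM with YAP5SA. The YAP5SA libraries again did not overlap with the others. Against GFP the log2 fold change was 1.86 (SE 0.246, adjusted p = 0.00113).

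Counts of *Rrm2* per count of *Rrm1* were 0.455 and 0.372 with GFP, 0.458 and 0.496 with YAP6SA, and 0.685 and 0.825 with YAP5SA, which were the 2 highest of the 6. These ratios carry no correction for gene length and were not tested. *Rrm2b* encodes the other small subunit, which serves DNA repair and mitochondrial DNA in cells that do not divide. It had 10.7 and 8.33 CPM with GFP and 10.6 and 7.09 CPM with YAP5SA, a log2 fold change of -0.12 (95% interval -0.77 to 0.53, adjusted p = 0.799). Counts of *Rrm2* per count of *Rrm2b* were accordingly 0.668 and 0.531 with GFP, 0.840 and 0.693 with YAP6SA, and 2.71 and 6.85 with YAP5SA.

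**Figure D2:**
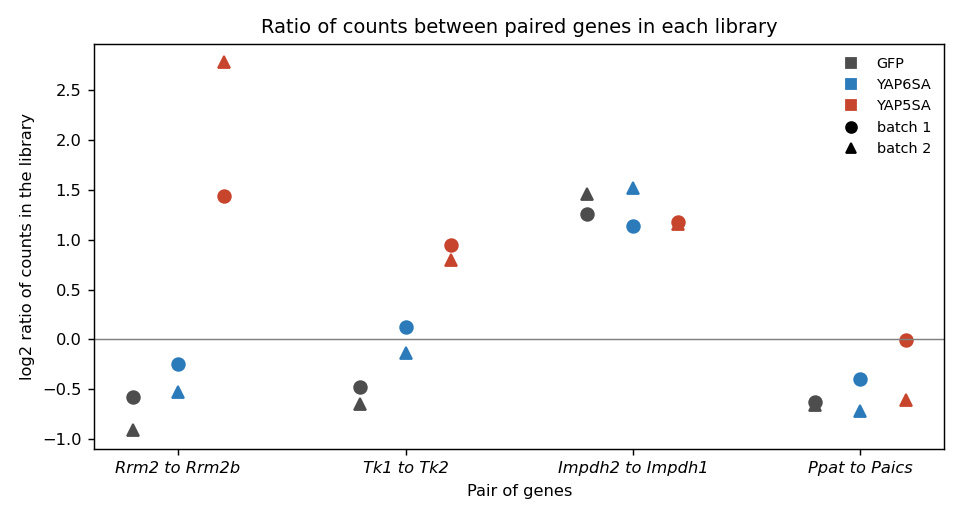
Log2 ratio of counts between paired genes (vertical axis) within each library, for 4 pairs (horizontal axis), with groups by color, circles for batch 1 and triangles for batch 2. The ratios of *Rrm2* to *Rrm2b* and of *Tk1* to *Tk2* are higher in both YAP5SA libraries than in the other 4, and those of *Impdh2* to *Impdh1* are lower in both YAP5SA libraries than in both GFP libraries, within the range of the YAP6SA libraries.

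*Tyms* encodes thymidylate synthase, which methylates deoxyuridine monophosphate. Its level was 19.6 and 16.9 CPM with GFP, 15.1 and 15.5 CPM with YAP6SA, and 31.2 and 41.1 CPM with YAP5SA. The groups did not overlap, with YAP6SA lowest and YAP5SA highest. The log2 fold change of YAP5SA against GFP was 0.98 (SE 0.217, adjusted p = 0.0123), and the call was lost without GFP library 2 (log2 fold change 0.77, adjusted p = 0.186).

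*Tk1* encodes the cytosolic thymidine kinase of dividing cells, which salvages thymidine. It had 27.5 and 24.6 CPM with GFP, 31.8 and 32.5 CPM with YAP6SA, and 58.3 and 65.2 CPM with YAP5SA. The groups were in the order GFP, YAP6SA, YAP5SA with no overlap. YAP5SA exceeded GFP by 1.25 on the log2 scale (SE 0.171, adjusted p = 0.00142), and the libraries of each group lay close together.

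The mitochondrial thymidine kinase *Tk2* was not called. Its log2 fold change in YAP5SA against GFP was -0.19 (95% interval -0.58 to 0.21, adjusted p = 0.478). Counts of *Tk1* per count of *Tk2* were 0.719 and 0.640 with GFP, 1.09 and 0.912 with YAP6SA, and 1.92 and 1.74 with YAP5SA.

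*Cad*, whose protein catalyzes the opening steps of pyrimidine synthesis, was the only 1 of the 9 genes with a negative value in YAP5SA against GFP. It had 61.5 and 58.9 CPM with GFP, 51.3 and 72.7 CPM with YAP6SA, and 51.1 and 66.3 CPM with YAP5SA, and all groups overlapped. The log2 fold change of YAP5SA against GFP was -0.06 (95% interval -0.44 to 0.33, adjusted p = 0.851), negative within batch 1 (-0.27) and positive within batch 2 (0.17).

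*Umps* had 11.7 and 9.24 CPM with GFP, 11.1 and 12.6 CPM with YAP6SA, and 13.8 and 24.5 CPM with YAP5SA. The YAP5SA libraries lay above the others but far from each other. The log2 fold change against GFP of 0.82 (SE 0.297, adjusted p = 0.0734) did not pass the threshold, and was 0.23 within batch 1 and 1.40 within batch 2. It passed without GFP library 1 (1.27, adjusted p = 0.0385) and without YAP5SA library 1 (1.26, adjusted p = 0.00267), and was 0.37 without YAP5SA library 2 and 0.41 without GFP library 2. *Dhodh*, the mitochondrial step between *Cad* and *Umps*, had a log2 fold change of -0.18 (95% interval -0.61 to 0.26).

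*Ppat*, the amidotransferase that commits phosphoribosyl pyrophosphate to purine synthesis, had 39.8 and 33.5 CPM with GFP, 54.5 and 45.7 CPM with YAP6SA, and 73.5 and 56.0 CPM with YAP5SA. The groups were in the order GFP, YAP6SA, YAP5SA without overlap. YAP5SA exceeded GFP by 0.81 on the log2 scale (SE 0.154, adjusted p = 0.00612), similar within batch 1 (0.88) and batch 2 (0.74). The call was lost without GFP library 1 (0.79, adjusted p = 0.0539) and without GFP library 2 (0.85, adjusted p = 0.0589).

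*Paics*, a bifunctional enzyme of the middle steps of the same pathway, had 61.4 and 52.9 CPM with GFP, 72.0 and 75.5 CPM with YAP6SA, and 73.9 and 85.6 CPM with YAP5SA. Every library of either variant lay above both GFP libraries. In YAP5SA against GFP it differed by 0.48 on the log2 scale (SE 0.160, adjusted p = 0.0567), which did not pass the threshold in the full set and did so without YAP5SA library 1 (0.62, adjusted p = 0.0105).

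*Ppat* and *Paics* lie head to head on chromosome 5 and are transcribed away from each other. In GRCm38 *Ppat* spans 76913249 to 76951578 on the minus strand and *Paics* spans 76951307 to 76967509 on the plus strand, so that 272 bases of their exons overlap. The libraries do not record strand, so reads from this stretch cannot be assigned to either gene. Counts of *Ppat* per count of *Paics* were 0.648 and 0.634 with GFP, 0.757 and 0.606 with YAP6SA, and 0.994 and 0.654 with YAP5SA. The YAP6SA ratios overlapped with those of both other groups, and both YAP5SA ratios lay above both GFP ratios, that of library 2 by little.

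*Impdh2*, the inosine monophosphate dehydrogenase induced in growing cells, had 54.6 and 60.3 CPM with GFP, 57.6 and 65.2 CPM with YAP6SA, and 68.0 and 99.2 CPM with YAP5SA. The YAP5SA libraries lay above the others, by little for library 1. YAP5SA exceeded GFP by 0.52 on the log2 scale (SE 0.161, adjusted p = 0.0427), close to the threshold. Leaving out 1 library at a time, the call held without YAP5SA library 1 and was lost without each of the other 5 (adjusted p 0.0655 to 0.396). The value was 0.34 without YAP5SA library 2.

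Its paralog *Impdh1* also rose in YAP5SA OE CMs, by 0.73 on the log2 scale (SE 0.224, adjusted p = 0.0426). Counts of *Impdh2* per count of *Impdh1* were 2.40 and 2.76 with GFP, 2.21 and 2.86 with YAP6SA, and 2.27 and 2.23 with YAP5SA, so that both YAP5SA ratios lay below both GFP ratios and within the range of YAP6SA. Short exon overlaps with other genes, where reads cannot be assigned, were 83 bases of *Tk1* with *Afmid*, 213 bases of *Umps* with an antisense gene and 48 bases of *Impdh2* with *Ndufaf3*. The pseudogenes *Tyms-ps* and *Impdh2-ps* held 0 and 23 counts over all 6 libraries.

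The YAP5SA libraries differed between themselves in a way that touched most of the 9 genes. In 8 of the 9 the batch 2 library was the higher, *Ppat* being the exception, and the higher level was 1.12 to 1.78 times the lower. In the GFP group the batch 1 library was the higher for 8 of the 9, all but *Impdh2*. The batch 2 YAP5SA library also had the lowest summed CM markers of the 6, and 2 of the 8 CM markers were called lower in YAP5SA than in GFP, *Pln* (log2 fold change -1.04, adjusted p = 0.00784) and *Ryr2* (-0.81, adjusted p = 0.0455). All 8 had negative values, with a median log2 fold change of -0.76, and 5 of the 8 were lower at an unadjusted p under 0.05. In such bulk samples, fewer cells of a type and less RNA per cell cannot be told apart.

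The summed markers of other cells overlapped between YAP5SA and GFP for fibroblasts (1490 and 902 against 1360 and 857 CPM) and endothelial cells (648 and 493 against 631 and 486 CPM), and 0 of the 8 markers of either passed the threshold, with 2 fibroblast markers higher and 1 lower at an unadjusted p under 0.05 and no endothelial marker. Mural markers summed to 429 and 337 CPM with YAP5SA against 498 and 569 CPM with GFP, and 1 of 7, *Abcc9*, was called lower. That gene held most of the GFP sum, with a mean of 328 CPM with GFP and 185 CPM with YAP5SA. The other 6 mural markers were not called. Of the 7, 1 had a positive value, and the median log2 fold change was -0.20. Both YAP5SA libraries lay below both GFP libraries for 3 of the 7 and above for 1, where 29.8% and 31.2% of all genes did so. Whether there were fewer mural cells was not tested. Macrophage markers summed to 83.2 and 118 CPM against 61.1 and 87.7 CPM, and 1 of the 6 tested, *C1qa*, was called higher. Erythroid markers summed to 47.1 and 31.8 CPM against 49.1 and 60.2 CPM. The part of these cells in the values of the 9 genes was not tested. Without YAP5SA library 2, 5 of the 9 genes were called higher than in GFP (*Rrm1*, *Rrm2*, *Tyms*, *Tk1* and *Ppat*).

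In YAP6SA OE CMs the 9 genes gave no call against the GFP controls. The quasi-likelihood test of edgeR called 0 of 9, where it called 0.0450% of all genes tested higher and 0% lower, and DESeq2 and limma-voom also called 0 of 9. At an unadjusted p under 0.05, 2 of the 9 were higher and none lower, against 3.86% and 2.07% of all genes. These 2 were the purine synthesis genes *Ppat* (log2 fold change 0.45, 95% interval 0.11 to 0.79, adjusted p = 0.701) and *Paics* (0.37, 95% interval 0.012 to 0.72, adjusted p = 0.838). The *Ppat* difference was 0.45 within each batch.

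The other 7 genes had log2 fold changes in YAP6SA from -0.26 for *Tyms* to 0.41 for *Rrm2*, and the median of all 9 was 0.23 against 0.0018 for all genes. For *Rrm2* the 95% interval was -0.33 to 1.14, and for *Rrm1* -0.31 to 0.78, so that changes within these bounds are not excluded. The interval of *Tk1* was -0.08 to 0.68 around 0.30. *Impdh2* was at 0.09 (-0.26 to 0.45) and *Cad* at 0.02 (-0.37 to 0.41). In 4 of the 9 genes both YAP6SA libraries lay above both GFP libraries (*Rrm2*, *Tk1*, *Ppat* and *Paics*) and in 1, *Tyms*, below, where 17.4% and 17.0% of all genes did so. Fibroblast markers were positive in 8 of 8 in YAP6SA against GFP (median 0.32) and mural markers in 7 of 7 (0.23). Positive values were found for 6 of 8 endothelial, 5 of 6 macrophage, 3 of 8 CM and 0 of 2 erythroid markers tested. None of these markers passed the threshold. The part of these cells in the YAP6SA values of the 9 genes was not tested.

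**Figure D3:**
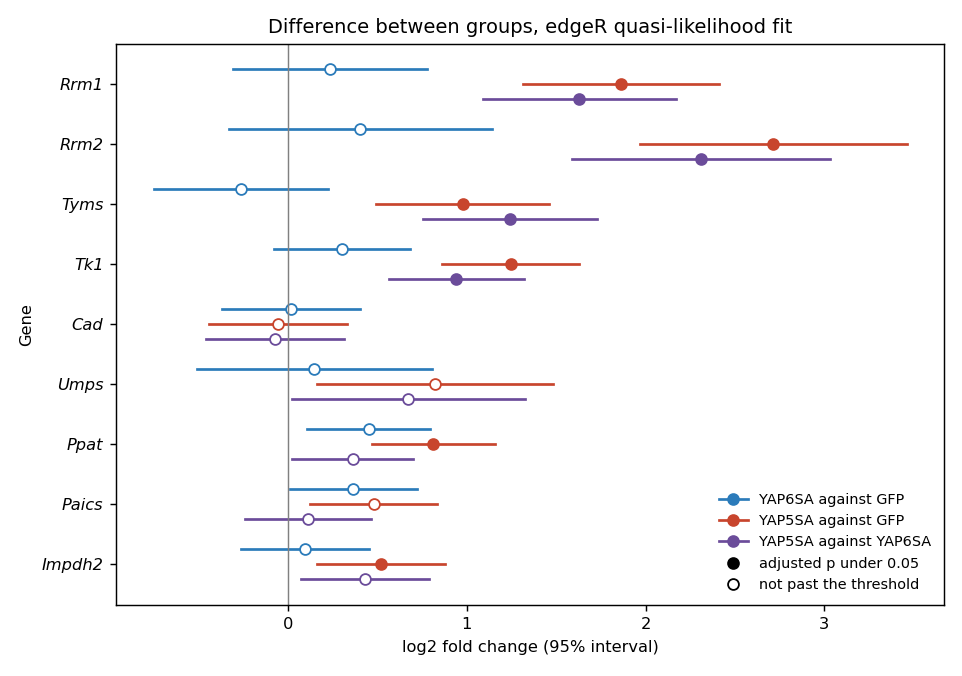
Log2 fold change of each of the 9 genes (horizontal axis) with its 95% interval, for YAP6SA against GFP, YAP5SA against GFP and YAP5SA against YAP6SA. Filled points passed an adjusted p under 0.05. All YAP6SA points are open, and the filled points of the comparison between the variants are *Rrm1*, *Rrm2*, *Tyms* and *Tk1*.

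The direct comparison of the variants, which differ by the TEAD-binding serine, called 4 of the 9 genes. Against YAP6SA, YAP5SA OE CMs had higher *Rrm2* (log2 fold change 2.31, SE 0.324, adjusted p = 0.00213), *Rrm1* (1.63, SE 0.243, adjusted p = 0.00273), *Tyms* (1.24, SE 0.218, adjusted p = 0.00588) and *Tk1* (0.94, SE 0.169, adjusted p = 0.00658). These are the 4 genes of deoxyribonucleotide supply, and 0 of the 5 genes of ribonucleotide synthesis passed the threshold. Of all genes tested, 9.0% were called higher and 5.68% lower. At an unadjusted p under 0.05, 7 of the 9 were higher, against 16.4% of all genes higher and 14.5% lower, and in 7 of the 9 both YAP5SA libraries lay above both YAP6SA libraries, where 28.6% of all genes lay above and 29.0% below. The calls of *Tyms* and *Tk1* were lost without YAP6SA library 2 (adjusted p = 0.0767 and 0.0828).

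The 5 ribonucleotide genes had a median of 0.36 between the variants. *Umps* differed by 0.67 (95% interval 0.022 to 1.33, adjusted p = 0.150), *Impdh2* by 0.43 (0.072 to 0.79, adjusted p = 0.101) and *Ppat* by 0.36 (0.022 to 0.70, adjusted p = 0.140). *Umps* and *Impdh2* passed without YAP5SA library 1, at 1.09 (adjusted p = 0.00709) and 0.62 (adjusted p = 0.00993). *Paics* differed by 0.11 (-0.24 to 0.47) and *Cad* by -0.07 (-0.46 to 0.32). The intervals of these 5 genes do not show that the variants act alike on them.

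The order of the levels differed between the groups. On the scale of CPM per kilobase of exon, *Impdh2* (18.7 ± 1.32, SD, n = 2) and *Paics* (18.2 ± 1.92) were highest in GFP controls, and their libraries overlapped. *Ppat* (8.29 ± 1.01), *Cad* (7.36 ± 0.224) and *Tk1* (5.01 ± 0.387) followed without overlap between neighbours. *Umps* (3.01 ± 0.506) and *Tyms* (3.0 ± 0.310) overlapped, and *Rrm2* (2.09 ± 0.702) and *Rrm1* (1.26 ± 0.248) were lowest. In YAP6SA OE CMs *Paics* (23.5 ± 0.775) stood above *Impdh2* (20.0 ± 1.75), and *Rrm2* (2.80 ± 0.132) above *Tyms* (2.51 ± 0.0481), with no neighbours overlapping. In YAP5SA OE CMs *Rrm2* (13.9 ± 5.09) stood at rank 4, overlapping with *Ppat* (14.6 ± 2.79) above it and *Tk1* (11.9 ± 0.944) below it, and above *Cad* (7.18 ± 1.31). *Rrm1* (4.57 ± 1.09) remained lowest on this scale, in overlap with *Umps* (5.49 ± 2.16). The length used joins all annotated exons of a gene, 11012 bases for *Rrm1*, and the order depends on it. In CPM, *Rrm1* was not lowest, with means of 13.8 with GFP and 50.3 with YAP5SA. *Rrm2* had 5.8 and 38.6 CPM, and *Umps* 10.5 and 19.1 CPM.

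To see which letters the promoters share, the windows from 250 bases before to 50 bases after each RefSeq start site (GRCm38.p6) were searched on both strands. An E2F site was counted where the letters were TTGGCGC, with the other permitted spellings being TTCGCGC, furthermore TTCCCGC, or finally TTGCCGC. The E-box was spelled CACGTG, while the box named CCAAT was searched by those letters. The GC box was spelled GGGCGG, while the motif of TEAD factors was spelled GGAATG. Stretches before the start that hold no annotated exon are given for the 4 genes that rose against both other groups and for *Cad*, which passed the threshold in no comparison. They are written 5′ to 3′ on the strand of the gene, with E2F sites, CCAAT on either strand and E-boxes in capitals.

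The stretches are, in GRCm38, chr7:102441445-102441694 (plus strand, before *Rrm1*), chr12:24708004-24708240 (plus, *Rrm2*), chr5:30073626-30073875 (minus, *Tyms*), chr11:117826093-117826264 (minus, *Tk1*) and chr5:31054624-31054779 (plus, *Cad*).
Rrm1: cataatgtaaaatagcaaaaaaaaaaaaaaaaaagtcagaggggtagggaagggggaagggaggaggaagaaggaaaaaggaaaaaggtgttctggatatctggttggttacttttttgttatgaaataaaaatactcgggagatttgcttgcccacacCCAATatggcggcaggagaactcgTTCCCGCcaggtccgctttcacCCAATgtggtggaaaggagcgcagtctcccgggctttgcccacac
Rrm2: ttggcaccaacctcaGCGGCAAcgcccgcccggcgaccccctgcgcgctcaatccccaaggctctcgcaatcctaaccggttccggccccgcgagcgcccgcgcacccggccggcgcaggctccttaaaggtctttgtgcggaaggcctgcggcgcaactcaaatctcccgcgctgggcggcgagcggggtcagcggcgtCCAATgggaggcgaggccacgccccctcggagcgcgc
Tyms: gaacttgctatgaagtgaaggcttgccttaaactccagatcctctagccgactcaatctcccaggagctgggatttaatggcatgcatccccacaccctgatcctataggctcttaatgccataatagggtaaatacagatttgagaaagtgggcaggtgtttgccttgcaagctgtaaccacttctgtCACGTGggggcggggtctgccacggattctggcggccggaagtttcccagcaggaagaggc
Tk1: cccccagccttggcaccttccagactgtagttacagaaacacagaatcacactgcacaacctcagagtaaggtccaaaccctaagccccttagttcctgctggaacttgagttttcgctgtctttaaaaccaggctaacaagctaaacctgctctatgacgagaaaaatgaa
Cad: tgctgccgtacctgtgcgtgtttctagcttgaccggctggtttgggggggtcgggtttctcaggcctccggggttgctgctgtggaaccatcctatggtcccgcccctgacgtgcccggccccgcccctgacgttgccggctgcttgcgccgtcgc

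*Rrm1* holds CCAAT at -91 and -45 and an E2F site at -67, counted from the start. *Rrm2* holds CCAAT at -50 and an E2F site on the opposite strand at -235. *Tyms* has an E-box at -61 beside a GC box at -54, and the stretches of *Tk1* and *Cad* hold none of the capitalized motifs, the E2F match of *Cad* lying after its start at 37. In the full windows E2F matches were found in 5 of the 9 genes (*Rrm1*, *Rrm2*, *Cad*, *Ppat* and *Impdh2*), against 9.57% of all 32851 promoter windows. CCAAT was found in 4 of 9 against 37.4%, the E-box in 3 of 9 (*Tyms*, *Paics* and *Impdh2*) against 7.15%, and the GC box in 8 of 9, all but *Rrm1*, against 35.7%. The TEAD motif was in none of the 9 windows and in 14.7% of all windows. The 250 bases before the start of *Ppat* are annotated exon of *Paics* and those before *Paics* are exon of *Ppat*. A GC box overlaps an E2F match in *Ppat*, and CCAAT overlaps the E2F match in *Impdh2*. A match is a description of letters, and its absence says nothing of the factor.

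**Figure D4:**
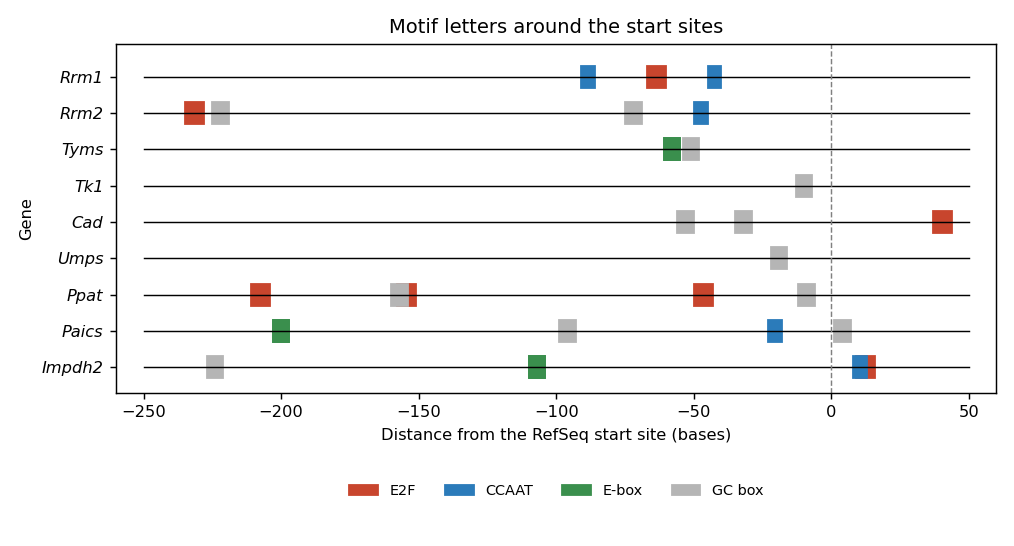
Motif matches on either strand in the windows around the RefSeq start sites of the 9 genes, with the distance from the start in bases on the horizontal axis (dashed line, the start) and 1 row per gene. E2F matches stand in the rows of *Rrm1*, *Rrm2*, *Cad*, *Ppat* and *Impdh2*, which include *Cad*, called in no comparison, and in *Ppat* and *Impdh2* a match is partly covered by another motif.

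The wider pathway had calls in both directions in YAP5SA OE CMs. Of 75 other genes of nucleotide metabolism, 61 passed the filter, and 12 were called higher and 7 lower than in GFP, with a median log2 fold change of -0.03. These shares are not far from the 12.8% and 9.18% of all genes tested, and nothing about the pathway as a whole is read from them. The enzymes of one-carbon folate metabolism, which supply carbon to purines and thymidylate, had 4 of 8 tested genes higher and 0 lower. Among the higher were *Mthfd1l* (2.15), *Mthfd2* (1.98) and *Shmt1* (1.10, named after its value was seen), each given as a log2 fold change. *Mthfd2*, a mitochondrial folate enzyme, had 3.51 and 2.28 CPM with GFP, 3.75 and 2.78 CPM with YAP6SA, and 7.92 and 15.1 CPM with YAP5SA, the latter above all others.

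Within the purine and pyrimidine pathways the other genes split. *Atic*, the enzyme of the last steps to inosine monophosphate, rose by 1.14 on the log2 scale (SE 0.307, adjusted p = 0.0263), *Adsl*, an enzyme of the steps between, fell by 0.57 (SE 0.143, adjusted p = 0.0204), and *Gart*, which catalyzes several early steps, had 0.14 (95% interval -0.26 to 0.55). *Adssl1*, the muscle enzyme of the adenine branch, fell by 1.12 (SE 0.201, adjusted p = 0.00507), from 166 and 175 CPM with GFP to 103 and 59.5 CPM with YAP5SA. *Ctps*, which makes cytidine nucleotides, rose by 0.89 (SE 0.156, adjusted p = 0.00429). *Atic*, *Adsl* and *Ctps* were named here after their values were seen.

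Of 13 tested genes of nucleotide breakdown, 3 were higher and 4 lower in YAP5SA against GFP. Of all genes tested, 12.8% were called higher and 9.18% lower. *Samhd1*, which degrades deoxyribonucleoside triphosphates, rose by 1.30 (SE 0.198, adjusted p = 0.00224), from 22.9 and 23.9 CPM with GFP to 45.7 and 71.5 CPM with YAP5SA. Of the adenosine monophosphate deaminases, *Ampd2* rose by 1.22 and *Ampd3* fell by 1.01. The nucleotidases *Nt5c3* and *Nt5m* fell by 1.11 and 0.93. Among 8 tested salvage genes 2 were higher, *Uck2* and *Aprt*, both named after their values were seen. Nothing about breakdown or salvage as a whole is read from these counts.

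The genes that supply ribose phosphate, through the pentose phosphate pathway and phosphoribosyl pyrophosphate synthesis, had few calls. Of 11 genes 0 were higher and 1 lower in YAP5SA against GFP, with a median of -0.13, where 12.8% of all genes were called higher and 9.18% lower. The lower gene was *Tkt*, a transketolase of the non-oxidative branch, which fell by 0.86 (SE 0.163, adjusted p = 0.00622), from 244 and 224 CPM with GFP to 130 and 129 CPM with YAP5SA. At an unadjusted p under 0.05, 1 of the 11 was higher and 3 were lower. In YAP6SA OE CMs edgeR called 0 of the 11, also at an unadjusted p under 0.05, with a median of -0.13.

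Over the whole of the other pathway genes, YAP6SA differed from GFP in 0 of 61 by edgeR, DESeq2 and limma-voom, and 1, *Nt5c3* (-0.37, adjusted p = 0.804), was lower at an unadjusted p under 0.05. Between the variants, 9.0% of all genes tested were called higher in YAP5SA and 5.68% lower. Of the 61 genes, 9 were higher in YAP5SA and 6 lower, and nothing about the pathway as a whole is read from these counts. Among the largest were *Mthfd2* (1.81), *Ampd2* (1.41), *Samhd1* (1.21) and *Atic* (1.08) among the higher, and *Adssl1* (-1.02), *Ampd3* (-0.84), *Nt5m* (-0.80), *Nt5c3* (-0.74) and *Tkt* (-0.66) among the lower.

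**Figure D5:**
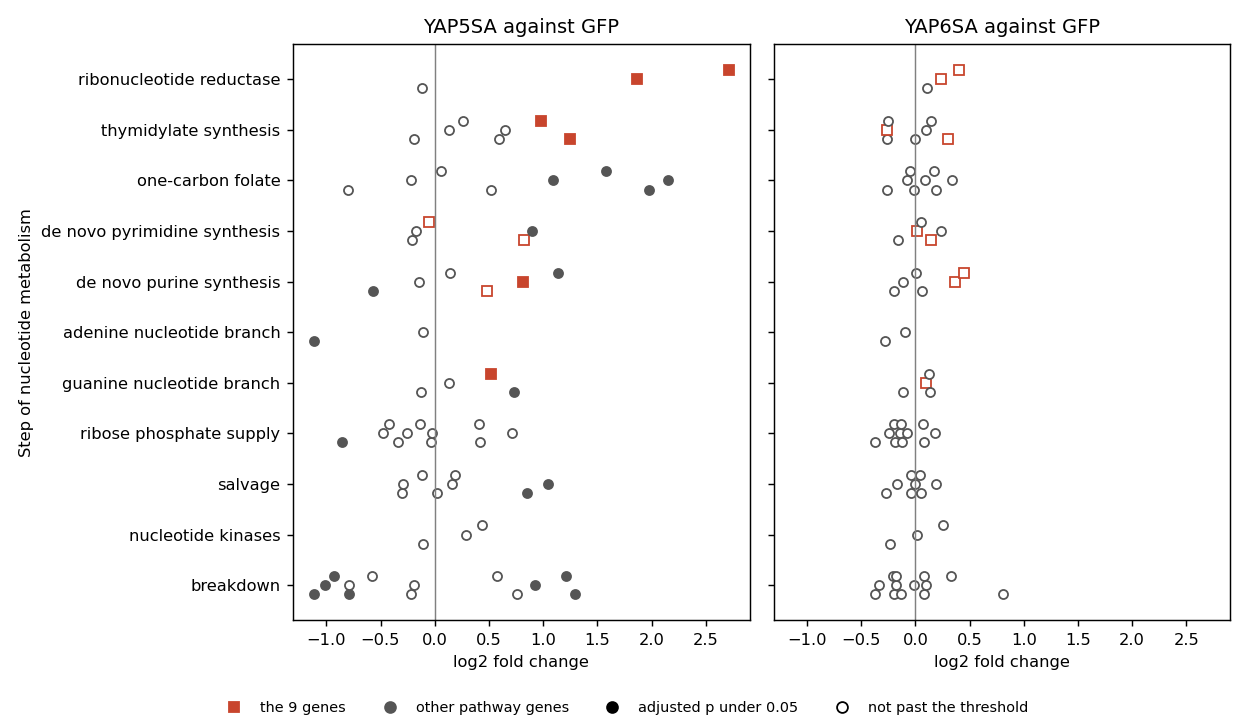
Log2 fold change (horizontal axes) of the 9 genes (squares) and the 61 other tested genes of nucleotide metabolism (circles) by step of the pathway, for YAP5SA against GFP (left) and YAP6SA against GFP (right). Filled symbols passed an adjusted p under 0.05. Filled symbols are absent on the right. On the left they lie only above 0 for ribonucleotide reductase, thymidylate, one-carbon folate, pyrimidine, guanine branch and salvage genes. They lie on both sides of 0 for de novo purine and breakdown genes, and only below 0 for adenine branch and ribose phosphate genes.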

How the data were processed

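Reads were aligned by the authors using STAR (mm10, Ensembl GRCm38 annotation), who deposited unnormalized read counts for each gene and library. Reads outside genes, mapped to several places or ambiguous between genes were not counted, so genes with close copies or overlapping exons lose reads. Genes with a median log2 CPM over 1 in at least 1 group were kept (13323 of 54532), as in the study's methods. The model had terms for group and batch and used TMM scaling and the quasi-likelihood test of edgeR 4.0.16 (R 4.3.3). Batch is given in the labels, where its number equals the replicate number, and was taken to pair the libraries. Deviations from the group means correlated across genes between same-batch libraries at 0.336 (GFP, YAP6SA), 0.0942 (GFP, YAP5SA) and 0.170 (YAP6SA, YAP5SA). The chi-square between replicates per degree of freedom was 30.9 to 49.4, where counting noise alone gives about 1. This is a ratio of variances summed over genes, in which genes with high counts weigh most.

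On counts simulated for YAP5SA against GFP over 12973 genes, the fit recovered 95 of 97 genes changed by 2 on the log2 scale. It recovered 56 of 99 changed by 1 and made 11 false calls. The simulated spread was assumed, and far fewer genes were changed than the 2931 called in the data, so recovery may differ there. Alternatives were DESeq2 1.42.0, limma-voom (limma 3.58.1), other scalings, filters and thresholds, and leaving out each library. The members and lists were chosen with earlier results of these data known. Named were the 9 genes, *Rrm2b*, *Impdh1*, *Dhodh*, *Gart*, the 5 largest changes past the threshold in each direction among other pathway genes, 2 in each other list, and for each of the 9 the 2 genes nearest in pattern. Items withheld from the text are not reported here. Promoter sequences are RefSeq's, with all 9 genes matched.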

Additional observations from a re-analysis of the deposited data

How the results depend on the processing

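With 2 libraries a group, intervals are wide. A change of 1 on the log2 scale was often missed in simulation, whose spread was assumed and not estimated from these libraries. Against GFP, *Rrm1*, *Rrm2* and *Tk1* passed the threshold in 17 of 17 alternatives in YAP5SA, *Tyms* and *Ppat* in 15, *Impdh2* in 8, *Umps* in 5, *Paics* in 3 and *Cad* in 0. Between the variants *Rrm1* and *Rrm2* passed in 17, *Tyms* and *Tk1* in 16. In YAP6SA none of the 9 passed in any. In the fit with no replicate block (the pairing by batch left out), 5 of the 9 were higher in YAP5SA than in GFP and 4 than in YAP6SA, *Impdh2* being lost against GFP (adjusted p = 0.0982), and no other call among the 9 changed. DESeq2 gave 5 and 4 and also lost *Impdh2* (adjusted p = 0.0662), as did a fit of only the 4 libraries compared (0.0686). Over all alternatives the adjusted p against GFP ran from 0.00332 to 0.396 for *Impdh2*, 0.000431 to 0.186 for *Tyms*, 0.000212 to 0.0589 for *Ppat*, 0.00267 to 0.615 for *Umps* and 0.0105 to 0.537 for *Paics*. Between the variants it ran up to 0.0767 for *Tyms* and 0.0828 for *Tk1*, from 0.00709 for *Umps* and from 0.00993 for *Impdh2*.

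At a threshold of 0.01 the other pathway genes called higher in YAP5SA were 5 against GFP and 4 against YAP6SA, with 1 lower against YAP6SA. Leaving out 1 library at a time, the 9 genes gave 3 (without GFP library 2) to 8 (without YAP5SA library 1) calls higher against GFP, and 2 (without YAP6SA library 2) to 6 (without YAP5SA library 1) against YAP6SA. The other pathway genes gave 4 (without GFP library 2) to 16 (without YAP5SA library 1) higher and 3 (without GFP library 1) to 13 (without YAP5SA library 1) lower against GFP. Against YAP6SA they gave 2 to 14 higher and 0 to 10 lower, lowest without YAP6SA library 2 and highest without YAP5SA library 1. A group left with 1 library is assumed to vary like the others.

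No value past the threshold changed sign. Leaving out 1 library at a time, *Cad* ran from -0.29 to 0.22 in YAP5SA against GFP (0.22 without GFP library 1, 0.03 without YAP5SA library 1) and from -0.24 to 0.11 between the variants (0.11 without YAP6SA library 2, 0.0042 without YAP5SA library 1). *Paics* ran from -0.021 (without YAP5SA library 2) to 0.25 between the variants. In YAP6SA against GFP, 5 of the 9 genes had their lowest value without GFP library 2 and their highest without GFP library 1 and changed sign. They ran from -0.019 to 0.54 for *Rrm1*, -0.053 to 1.01 for *Rrm2*, -0.23 to 0.27 for *Cad* (-0.16 without YAP6SA library 2), -0.24 to 0.61 for *Umps* and -0.010 to 0.21 for *Impdh2*. The cause was not tested.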

Other observations

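Genes of the DNA replication fork, which use the deoxyribonucleotides, were higher in YAP5SA OE CMs in 18 of 23 tested and lower in 0, with a median log2 fold change of 1.43 against GFP and 1.13 against YAP6SA (15 of 23 higher). Of all genes tested, 12.8% were called higher against GFP and 9.0% against YAP6SA. *Mcm3* and *Mcm6*, subunits of the replicative helicase, had the largest values, 2.46 and 2.38 against GFP and 1.94 each against YAP6SA. *Mcm3* had 4.98 and 4.49 CPM in the GFP libraries, 6.34 and 7.55 CPM in the YAP6SA libraries, and 19.2 and 35.3 CPM in the YAP5SA libraries. In YAP6SA against GFP edgeR called 0 of the 23, with a median of 0.14 and 1 higher at an unadjusted p under 0.05.

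Of 11 tested E2F and MYC factors, transcription factors known for driving replication and growth genes, 6 were higher in YAP5SA against both GFP and YAP6SA and 0 were lower, beside the same shares of all genes (12.8% and 9.0%). *E2f1* (2.81 against GFP, 2.50 against YAP6SA) and *E2f7* (2.21 and 1.82) were the largest on the log2 scale, and *E2f1* had 3.88 and 3.19 CPM in the GFP libraries, 4.82 and 3.93 CPM in the YAP6SA libraries, and 20.8 and 28.9 CPM in the YAP5SA libraries. In YAP6SA against GFP edgeR called 0 of the 11, also at an unadjusted p under 0.05, with a median of 0.14.

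The genes whose centred log2 CPM lay nearest to each of the 9 over the 6 libraries were *Wtip* and *Ier3* for *Rrm1* (Euclidean distance 0.189 and 0.222), *Gm17501* and *Ska1* for *Rrm2* (0.212 and 0.233), *Tex30* and *Tdp1* for *Tyms* (0.114 and 0.167), and *Zc2hc1c* and *Igf1r* for *Tk1* (0.140 and 0.160). They were *Skida1* and *Nagk* for *Cad* (0.123 and 0.149), *Mogs* and *Pfkfb3* for *Umps* (0.139 and 0.148), *Pkdcc* and *Gm30735* for *Ppat* (0.122 and 0.178), *Tnpo1* and *Rp2* for *Paics* (0.0847 and 0.0928), and *Creld2* and *Hsp90b1* for *Impdh2* (0.0896 and 0.107). None of the 9 was among the 2 nearest of another. These 6 points share their libraries and depth, and nearness in them is a description.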
